A study of Mus musculus with 2 samples.

Results

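Rod phototransduction and photoreceptor support genes were compared in corneas of unilaterally affected BALB/c mice, the degenerative cornea against a normal one. The genes were given as 10 names and chosen by the log2 ratios of these same arrays, with results known, so their ratios are a description and carry no test. Spots were taken whose deposited name equals a listed name, ignoring case. This gave 11 of 37632 spots under 9 names, with 3 spots for Aipl1 and 1 for each of the others, and RECO_MOUSE is the recoverin probe. No spot was named Cngb1. A spot named Cngb1b, which RefSeq lists as an older name of Cngb1, is described apart and is not counted. After the filter on dim spots 10 of the 11 spots and all 9 names remained.

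Total RNA of both tissues was labelled and hybridised together on 2 two-colour spotted arrays. Array 1 carried the degenerative cornea in Cy5 and the normal cornea in Cy3, and array 2 carried the dyes swapped. No treatment, age or genotype beyond the strain is given in the sources used here, nor whether animals were pooled. Both arrays count as 1 replicate, so there is no spread between animals, no p-value is given, and the SD beside a mean is that of the 2 arrays. Of 35852 gene probes, 14894 had at least 1 channel above background on each array, which covered 7896 named genes, and between 34.9% and 47.2% of gene probes were above background in each channel. The corneal epithelial markers Krt12 (keratin of the corneal epithelium) and Aldh3a1 (an abundant corneal aldehyde dehydrogenase) were at the top of the intensity range in both tissues, with log2 ratios of -0.02 ± 0.18 and 0.03 ± 0.14. Both were saturated, which compresses a ratio.

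In rods, light activates a visual pigment, the pigment activates the G protein transducin, and transducin switches on a phosphodiesterase that breaks down cyclic GMP. Cyclic GMP-gated channels then close. Arrestin, recoverin, the RGS9 complex and the guanylate cyclase activating proteins shape and end the response, while chaperones and trafficking proteins supply the outer segment. These proteins are known for their high abundance in retinal photoreceptors. The cornea has no photoreceptors.

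RefSeq promoter windows (GRCm38.p6, each a 300-base window around a transcript start) were available for 7 of the 9 genes, all but RECO_MOUSE and Guca1b. They were searched for TAATCC and its reverse complement GGATTA, the core letters bound by the photoreceptor factor CRX and its relative OTX2. Sag, Gngt1, Aipl1 and Guca1a held a match, which is 4 of 7, and 7.06% of all 32851 windows held one. Among other rod phototransduction genes, listed further below, 5 of 10 windows held one, so the share is not particular to these genes. The windows of Sag, Gngt1, Aipl1 and Guca1a are printed because they show how close to the start the letters lie. That of Rgs9 is printed because it is the gene among the 9 whose ratio was above 0. Capitals mark the matches, and every sequence runs 5′ to 3′ on the gene's own strand. Sag lies at chr1:87803430-87803729 (+ strand), Gngt1 at chr6:3993758-3994057 (+ strand), Aipl1 at chr11:72037460-72037759 (- strand), Guca1a at chr17:47400557-47400856 (- strand) and Rgs9 at chr11:109298132-109298431 (- strand).
Sag: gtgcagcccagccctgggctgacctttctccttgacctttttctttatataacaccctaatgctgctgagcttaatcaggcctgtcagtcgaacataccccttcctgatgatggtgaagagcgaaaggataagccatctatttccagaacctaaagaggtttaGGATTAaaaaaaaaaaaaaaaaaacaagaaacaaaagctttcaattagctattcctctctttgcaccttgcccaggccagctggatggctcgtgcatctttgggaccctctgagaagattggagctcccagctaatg
Gngt1: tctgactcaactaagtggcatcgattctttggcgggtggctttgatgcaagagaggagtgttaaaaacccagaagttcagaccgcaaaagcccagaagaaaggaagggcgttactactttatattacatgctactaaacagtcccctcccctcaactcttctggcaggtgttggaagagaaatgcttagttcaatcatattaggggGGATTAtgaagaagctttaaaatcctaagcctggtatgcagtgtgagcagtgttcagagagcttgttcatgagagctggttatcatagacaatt
Aipl1: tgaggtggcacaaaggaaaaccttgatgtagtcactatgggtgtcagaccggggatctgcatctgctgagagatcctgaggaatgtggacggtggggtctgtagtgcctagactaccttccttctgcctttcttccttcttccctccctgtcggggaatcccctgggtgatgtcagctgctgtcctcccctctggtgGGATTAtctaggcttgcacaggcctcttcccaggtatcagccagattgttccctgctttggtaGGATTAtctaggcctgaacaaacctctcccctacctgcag
Guca1a: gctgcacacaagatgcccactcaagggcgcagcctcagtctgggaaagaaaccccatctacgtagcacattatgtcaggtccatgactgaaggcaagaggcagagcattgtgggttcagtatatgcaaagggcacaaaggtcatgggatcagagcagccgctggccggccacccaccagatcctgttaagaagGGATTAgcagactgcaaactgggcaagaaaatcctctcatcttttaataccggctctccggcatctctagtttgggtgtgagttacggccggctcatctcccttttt
Rgs9: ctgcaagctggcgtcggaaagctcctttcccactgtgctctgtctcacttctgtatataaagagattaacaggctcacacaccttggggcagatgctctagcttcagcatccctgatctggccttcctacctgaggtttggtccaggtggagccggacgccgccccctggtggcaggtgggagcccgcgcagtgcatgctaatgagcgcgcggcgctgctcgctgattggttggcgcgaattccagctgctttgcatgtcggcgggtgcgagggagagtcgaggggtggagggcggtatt

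All 5 matches in the first 4 windows read GGATTA. The match began 87 bases upstream of the start in Sag, 44 bases upstream in Gngt1 and 57 bases upstream in Guca1a. Aipl1 had a match 53 bases upstream and another beginning at base 11 of the transcript. The windows of Pdc, Tulp1 and Rgs9 held no match, although Pdc and Tulp1 were lower and Rgs9 was not. The Cngb1 window held 2 matches. A match is a run of letters and not a shown binding site.

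Most of these genes were lower in the degenerative cornea. A gene was called lower if its normalized log2 ratio, degenerative over normal, was -1 or less on each array, which is 2-fold. By this rule 7 of the 9 genes were lower (Sag, Gngt1, RECO_MOUSE, Aipl1, Tulp1, Pdc and Guca1b), and none was higher. Over all measured genes 0.709% were called lower (56 of 7896) and 0.317% higher (25). Because the genes were chosen on this contrast, nothing is read from that difference in shares. The median of the 9 mean ratios was -1.60, and the median over all measured genes was 0.0081. Whether a lower ratio reflects fewer photoreceptor cells in the sample or less RNA per cell cannot be told apart in bulk RNA.

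Sag, the rod arrestin that binds the activated visual pigment and stops its signalling, gave intensities of 5174 on array 1 and 4808 on array 2 in the degenerative cornea. In the normal cornea the same probe gave 22015 and 21896. The tissues did not overlap, and each tissue's 2 readings were close although they came from different dyes. The normalized log2 ratios were -1.81 and -2.06, a mean of -1.94 ± 0.18, which is 3.83-fold lower.

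Gngt1 encodes the gamma subunit of rod transducin. Its intensities were 6259 and 6090 in the degenerative cornea (arrays 1 and 2) against 23786 and 18489 in the normal cornea. The degenerative readings agreed more closely than the normal ones, and the tissues did not overlap. The log2 ratios were -2.20 and -1.62, and their difference of 0.58 was the widest among the 9 genes. The mean of -1.91 ± 0.41 corresponds to 26.7% of the normal level.

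Pdc, phosducin, binds the beta-gamma subunits of transducin. It read 2059 and 2039 in the degenerative cornea and 7455 and 5341 in the normal cornea. The tissues were separate on both arrays, and the spread lay in the normal channel. Its log2 ratios were -1.41 and -1.10 (mean -1.25 ± 0.22, 2.39-fold lower), so array 2 was close to the limit of a call.

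Recoverin, the calcium sensor that restrains the visual pigment kinase, was measured by the probe RECO_MOUSE. Intensities were 1349 and 1475 in the degenerative cornea and 5227 and 4568 in the normal cornea. The ratios of the 2 arrays were nearer to each other than for any other of the 9 genes, at -1.80 and -1.90. Their mean of -1.85 ± 0.07 is 3.61-fold lower.

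Guca1a and Guca1b encode the 2 guanylate cyclase activating proteins that restart cyclic GMP synthesis when calcium falls, and they are neighbours in RefSeq with no gene between them. The Guca1b probe gave 2489 and 2420 in the degenerative cornea and 5904 and 6225 in the normal cornea. It was called lower just inside the limit, with log2 ratios of -1.05 and -1.16 (mean -1.10 ± 0.08). Guca1a read 14787 and 15732 in the degenerative cornea and 21751 and 20653 in the normal cornea. Its degenerative readings were below its normal readings on both arrays, but by less than the call rule asks. The log2 ratios were -0.55 and -0.40 (mean -0.47 ± 0.11), which leaves 72.1% of the normal level against 46.5% for Guca1b. The array values of these neighbours did not overlap.

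Aipl1, a chaperone needed to assemble the rod phosphodiesterase, had 3 spots. The spot in print block 22 gave 794 and 626 in the degenerative cornea and 2766 and 2182 in the normal cornea, and the spot in block 5 gave 429 and 543 against 1640 and 1389. Both were above background in the normal cornea on both arrays and in the degenerative cornea on array 1 only. The highest of 8 Empty spots in block 22 read 300 in the degenerative channel of array 2, and block 5 held no Empty spot. The log2 ratios below are those of the 2 Aipl1 spots. Their log2 ratios were -1.65 and -2.07 for block 22 and -1.67 and -1.90 for block 5, so 2 separate spots gave like values. The mean over both spots was -1.82 ± 0.23, 3.53-fold lower. The spot in block 14 was below background in every channel, at no more than 220, and was not used.

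Tulp1 is a photoreceptor protein of the tubby family that takes part in moving proteins to the outer segment. Its probe read 797 and 630 in the degenerative cornea and 2295 and 2053 in the normal cornea. As with Aipl1, the degenerative cornea was above background on 1 of 2 arrays, so the size of the difference on array 2 rests on a dim reading. The limit in that channel was 789, drawn over the Empty spots of all blocks. In block 25, which holds Tulp1, the highest of 4 Empty spots read 141 in that channel. The log2 ratios were -1.32 and -1.87 (mean -1.60 ± 0.39, 3.03-fold lower).

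**Figure D1:**
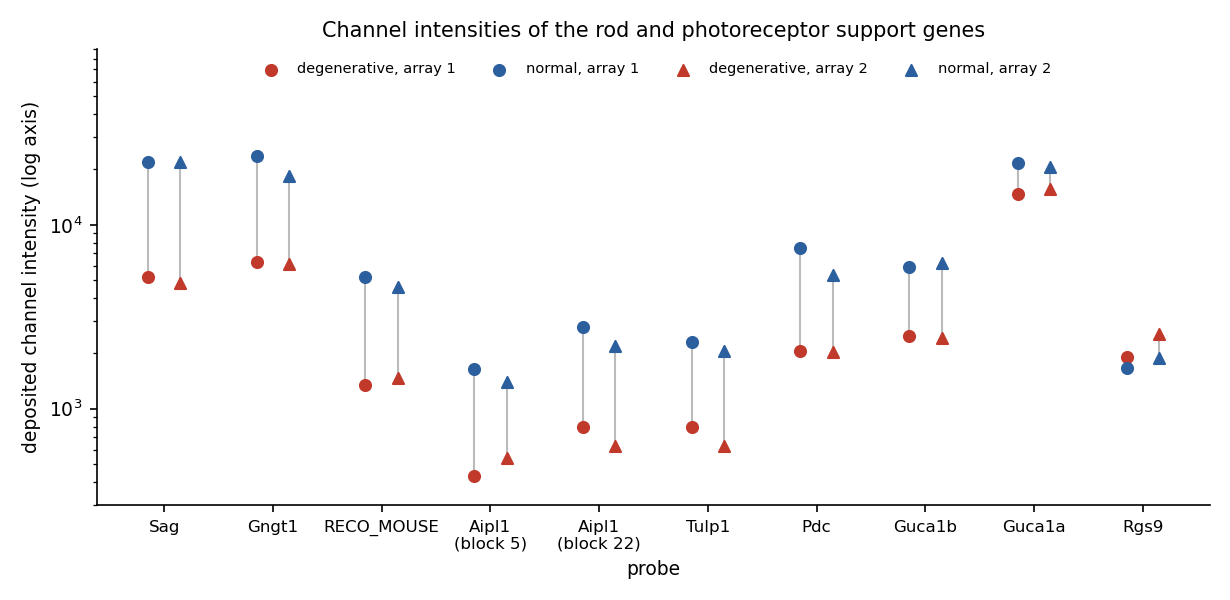
Deposited intensity of each measured probe on a log axis, with the degenerative cornea in red and the normal cornea in blue, circles for array 1 and triangles for array 2, and a line joining the tissues on an array. Sag reads 22015 in the normal and 5174 in the degenerative cornea on array 1, while Rgs9 is the probe whose degenerative readings lie above its normal readings. Heights of different probes are not comparable.

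Rgs9 encodes the GTPase activating protein that switches transducin off, and it was the gene of the 9 with a ratio above 0. It read 1909 and 2556 in the degenerative cornea and 1674 and 1882 in the normal cornea. The degenerative reading was the higher one on each array. Across arrays the highest normal reading of 1882 lay just below the lowest degenerative reading of 1909. These are raw intensities, and the channels differed in general brightness. Over all gene probes the medians (degenerative and normal) were 246 and 439 on array 1 and 413 and 226 on array 2. That order across arrays therefore does not separate the tissues. The Rgs9 log2 ratios of 0.46 and 0.18 (mean 0.32 ± 0.20) missed the limit of a call. The Cngb1b spot, for the rod channel's beta subunit, read 1925 and 2431 in the degenerative cornea and 2028 and 2388 in the normal cornea. Its log2 ratios were 0.05 and -0.14, so the direction differed between the arrays.

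Both uncalled genes lie in print blocks where spots named Empty, which hold no gene, gave signal. In block 41, with the Guca1a probe, 58 of 100 Empty spots were above background in some channel, and in block 42, with the Rgs9 probe, 61 of 103 were. Outside blocks 41, 42, 45 and 46 this held for 11 of 230, among them 2 of 5 in block 43, which holds Gngt1, a gene called lower. Guca1a was far brighter than any Empty spot of its block, whose highest reading was 2593. The Rgs9 probe was exceeded by 2 Empty spots in the degenerative channel and by 6 in the normal channel on array 1, and by none on array 2. Among the other measured probes of these blocks, the photoreceptor bundling protein gene Fscn2 in block 41 (-1.24 ± 0.23) and the neuronal surface gene Thy1 in block 42 (-1.70 ± 0.29) were called lower. Of the measured probes, 1 of 300 was called lower in block 41 and 1 of 275 in block 42. Outside blocks 41, 42, 45 and 46 it was 78 of 13781. Fscn2 and Thy1 read below the brightest Empty spot of their block in every channel. For Fscn2 the degenerative cornea was above background on array 1 only. The part of these blocks in the ratios of Guca1a and Rgs9 was not tested.

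**Figure D2:**
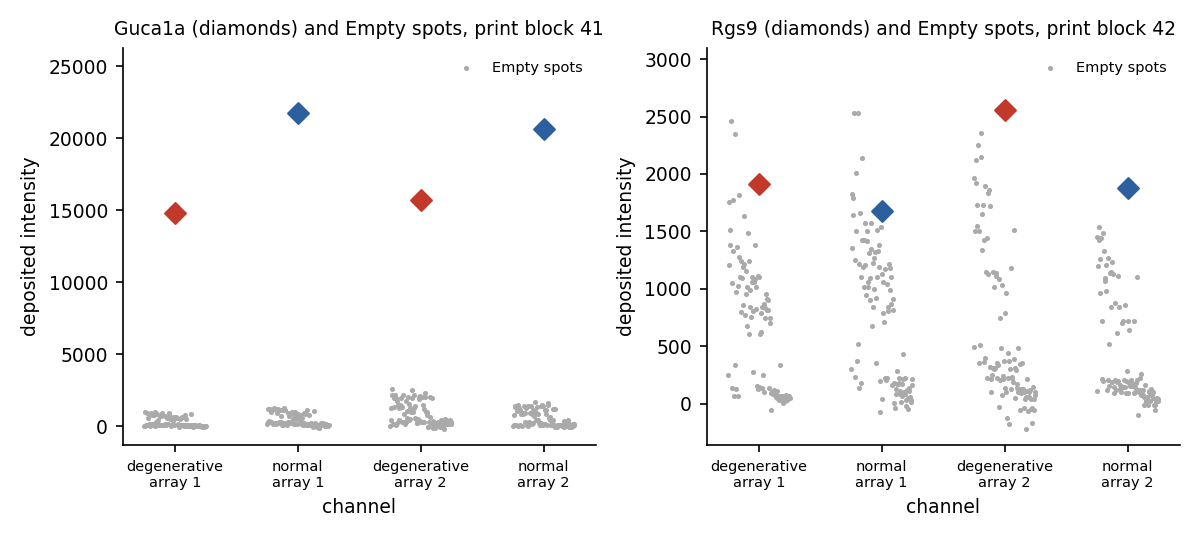
Deposited intensity (linear axis) of Guca1a and Rgs9 in each channel as diamonds, red for the degenerative and blue for the normal cornea, beside the Empty spots of the same print block as grey points. Guca1a stands clear of the 100 Empty spots of block 41, while Rgs9 lies within the upper range of the 103 Empty spots of block 42 on array 1.

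Ordered by mean ratio from the lowest, the genes ran Sag, Gngt1, RECO_MOUSE, Aipl1, Tulp1, Pdc, Guca1b, Guca1a and Rgs9. From Sag to Guca1b the array values of each gene overlapped those of the next, so neighbours in that order were not separated. Guca1b and Guca1a were separated by 0.63, and Guca1a and Rgs9 by 0.80. The 7 called genes spanned 0.84 on the log2 scale and stood at 26.1% to 46.5% of the normal level. By mean ratio Sag was the lowest but 9 of 7896 genes (rank 10), Gngt1 was at rank 11, RECO_MOUSE at 16, Aipl1 at 17 and Tulp1 at 26. Pdc was at rank 47 and Guca1b at 62, while Guca1a was at 260. The 2 arrays differed by a median of 0.28 over the 9 genes, against 0.14 over all measured genes. Array 2 gave the lower ratio for 5 of the called genes and array 1 for 2.

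**Figure D3:**
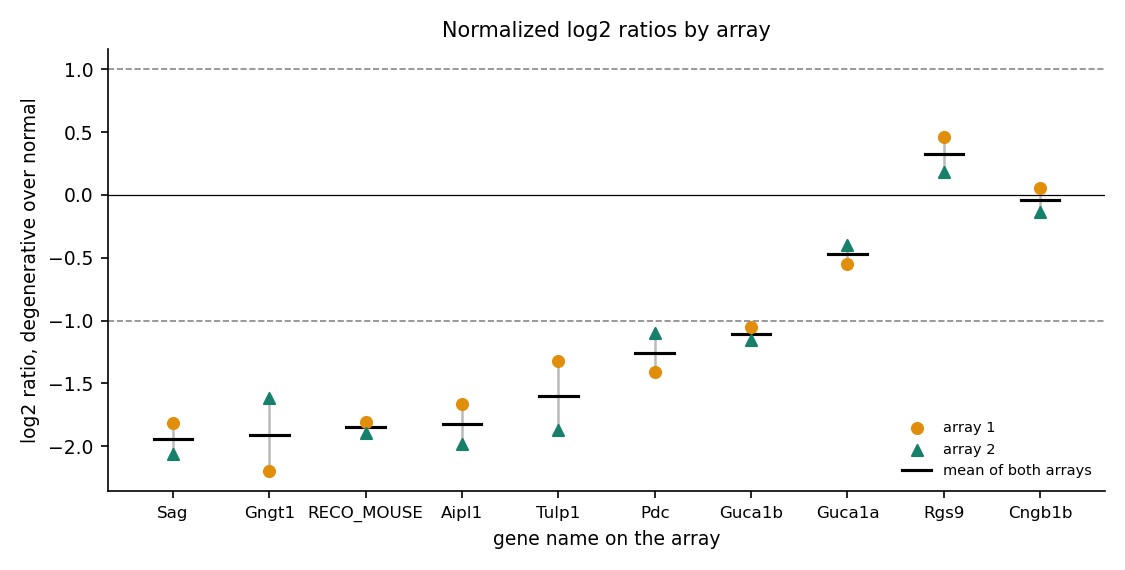
Normalized log2 ratio of degenerative over normal cornea on array 1 (circles) and array 2 (triangles) with their mean as a bar, for the 9 genes and for the Cngb1b spot. Dashed lines mark a log2 ratio of 1 in size, and 7 genes lie below -1 on both arrays.

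Other components of the rod cascade included lower genes and genes with ratios near 0. Of 15 listed genes 13 had a probe and 11 were measured, of which 6 were called lower and none higher, with a median of -1.18. Gnat1, the transducin alpha subunit and partner of Gngt1, was 2.98-fold lower (-1.80 and -1.35, mean -1.58 ± 0.32). Gnb1, the transducin beta subunit that many tissues express, had a ratio of -0.14 ± 0.01 at intensities between 40823 and 50256. Thus the 3 transducin subunits had mean ratios of -1.58, -0.14 and -1.91.

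The phosphodiesterase subunits also differed. Pde6g, its inhibitory subunit, was 2.92-fold lower (-1.55 ± 0.26) and Pde6b, a catalytic subunit, 2.36-fold (-1.24 ± 0.03). Pde6a, the other catalytic subunit, had log2 ratios of -0.47 and -0.64 and was not called. Pde6d, a prenyl-binding carrier protein found in many tissues, had -0.27 ± 0.09. Unc119, a carrier of lipid-modified transducin, was 2.54-fold lower (-1.35 ± 0.07).

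Gnb5, the obligate beta subunit partner of RGS9, was called lower (-1.14 and -1.21, mean -1.18 ± 0.05), whereas Rgs9 itself had 0.32 ± 0.20. The Gnb5 probe read 624 and 877 in the degenerative cornea and 1684 and 1134 in the normal cornea. Its tissues lay closer in intensity on array 2 than on array 1, so its like ratios came only with the normalization. Rgs9bp, the membrane anchor of the RGS9 complex, was below background. Among genes of the calcium feedback, Gucy2e, a photoreceptor guanylate cyclase, had 0.20 ± 0.26, with ratios of 0.01 and 0.38. Slc24a1, the rod sodium-calcium exchanger, had 0.00 ± 0.06. Grk1, the visual pigment kinase that recoverin binds, had a probe below background in every channel. Cnga1 and Gucy2f had no probe under these names.

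**Figure D4:**
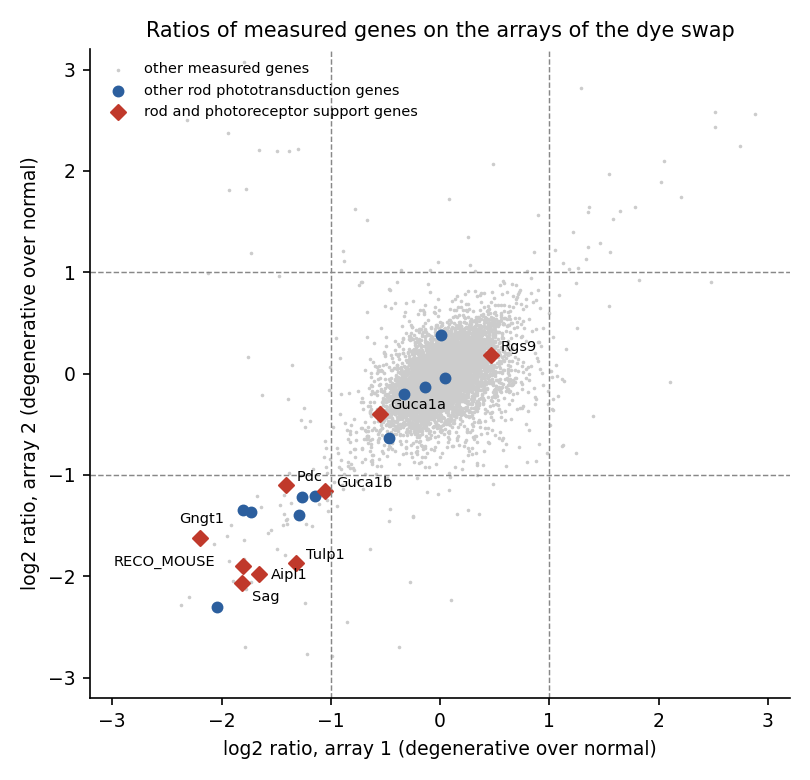
Log2 ratio on array 2 against array 1 for the measured genes in grey, the other rod phototransduction genes in blue and the 9 rod and support genes as red diamonds, with dashed lines at 1 in size. Of the red diamonds 7 lie in the lower left corner, and 9 of the 7896 measured genes fall outside the axes.

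The wider photoreceptor lists held lower genes as well, and they share the same arrays and RNA as the rod genes. Of 12 measured outer segment and cilium genes, 5 were lower and none higher (median -1.04), among them Rp1, an axoneme protein (-1.60 ± 0.26), and Rom1, a disc rim protein (-1.46 ± 0.04). Mak, a cilium kinase, had ratios of -0.99 and -2.78 and was not called, and its degenerative reading was above background on array 1 only. In the cone list 2 of 5 measured genes were lower (median -0.75). For Opn1sw, a cone opsin, and Pde6h, a cone phosphodiesterase subunit, the degenerative cornea was not above background on either array, so only approximate bounds of at least 4.03-fold and 2.32-fold lower are given. Among transcription factors 2 of 4 were lower, Otx2 (-1.38 ± 0.11) and Neurod1 (-1.32 ± 0.16). Crx, the photoreceptor homeobox factor, had -1.23 on array 1 and -0.53 on array 2, and its degenerative reading was above background on array 1 only. The visual cycle list had 3 of 8 lower (median -0.62), with Rlbp1, a retinaldehyde carrier, at -1.97 ± 0.11 and Rdh11, a retinol dehydrogenase, at -1.44 ± 0.06. The 9 genes, the other rod phototransduction list and these 4 lists together accounted for 25 of the 56 genes called lower. In that order they held 9, 11, 12, 5, 4 and 8 of the 7896 measured genes. The 9 genes were chosen on these ratios and the lists with results known, so nothing is read from that count.

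Relatives of the listed genes that work outside photoreceptors were also counted. Of 18 measured relatives 2 were called lower and none higher, and the median was -0.16. Gng11, a gamma subunit of the same family as Gngt1, had -0.69 and -0.85 (mean -0.77 ± 0.11) and was not called. Tulp4, of the same family as Tulp1, had 0.46 ± 0.03. The called relatives were the neuronal gamma subunit Gng3 and the neuronal calcium sensor relative Hpcal1, which were at least 1.51-fold and 1.70-fold lower, both approximate bounds because the degenerative cornea was below background. Cross-hybridisation between relatives could not be checked, since probe sequences were not used here.

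Markers of other eye tissues also differed between the samples. Inner retinal and Muller glia markers had 3 of 14 measured genes lower (median -0.19), while 4 were above 0 on both arrays. Of the called genes, the bipolar cell gene Pcp2 had -1.88 ± 0.27 and Thy1 -1.70 ± 0.29. For the other called gene the degenerative cornea was not above background on either array. The list's summed intensity was 19650 and 22776 in the degenerative cornea against 26738 and 23775 in the normal cornea. Of 8 pigment cell, iris and ciliary body markers 5 were measured, 4 of them below 0 on both arrays, with sums of 34802 and 36490 against 62612 and 60396, and Tyr was below background. Of 8 retinal pigment epithelium markers 4 were measured and 3 were below 0 on both arrays, with sums of 12514 and 14289 against 20269 and 20708. Ttr alone gave 8520 and 9618 against 13784 and 14921 of these sums, and all 4 genes are also in the visual cycle list. No gene of the pigment cell or retinal pigment epithelium list was called. Over all measured genes 2596 of 7896 were below 0 on both arrays. Rpe65, the defining enzyme of that epithelium, was above background only in the normal cornea on array 1. Lens markers went the other way, with 9 of 12 measured genes called higher and sums of 114347 and 119743 against 34506 and 33478. The corneal epithelial list had no called gene among 10 (median 0.14, 6 of them saturated), and the keratocyte list none among 5 (median -0.19). Of 5 measured corneal endothelial markers 1 was lower, the carbonic anhydrase gene Car2 (-1.95 ± 0.24), with a list median of -0.66. For Car2 the degenerative cornea was above background on array 1 only. What part the amount of other eye tissue in each sample had in the rod ratios was not tested.

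**Figure D5:**
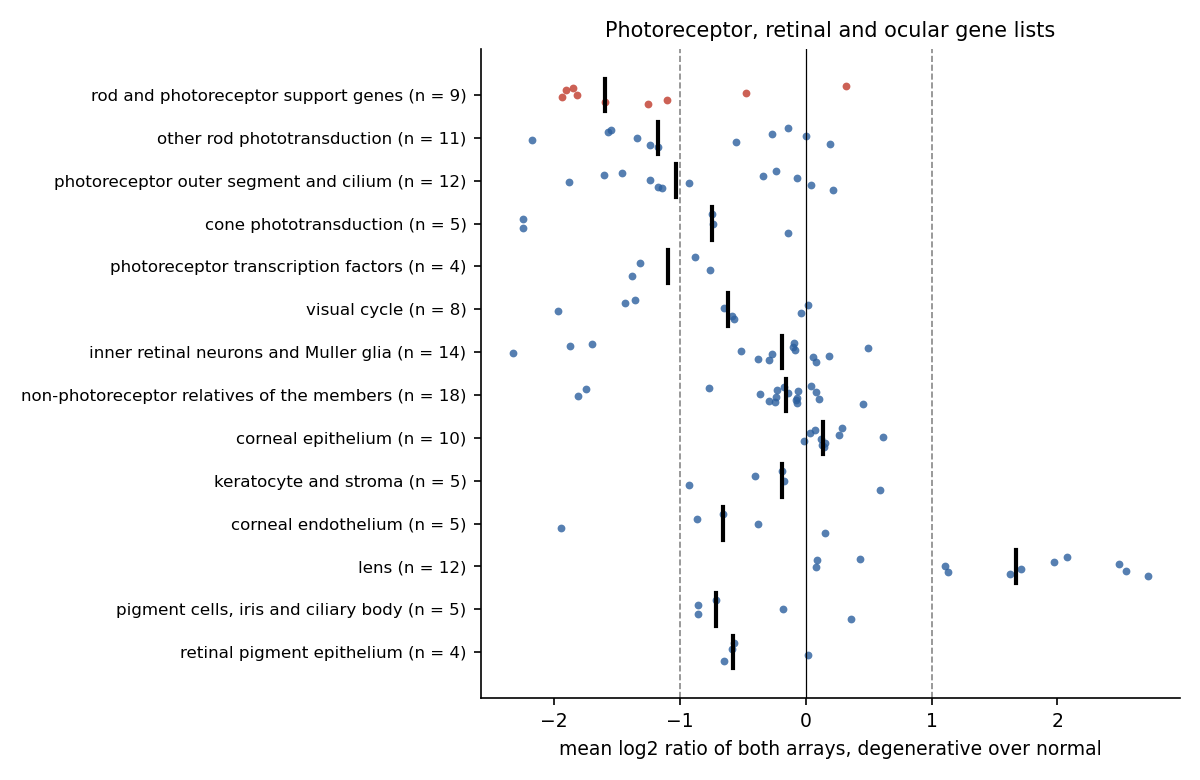
Mean log2 ratio of both arrays for each measured gene of the rod and support genes (red) and of each other list (blue), with the list's median as a black bar and dashed lines at 1 in size. Photoreceptor lists have medians from -1.60 to -0.62, the lens list 1.67 and the corneal epithelial list 0.14.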

How the data were processed

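Total RNA was amplified and labelled with a kit, per the labels' protocols, and each deposited file holds 1 array of the dye swap. The authors deposited for every spot the intensity of each dye. Some values are below 0, and how background was treated is not stated in the labels or headers. The deposited log2 values are normalized ratios of Cy5 over Cy3 on array 1 and the reverse on array 2, per the file headers, which with the dye labels puts the degenerative cornea on top both times, and a second column gives the same ratio on a linear scale, per the file headers. Neither labels nor headers state the scanner, the image software or the normalization method. The series' value table equalled the log2 ratio of the array files for all 37632 spots.

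Control spots (1780) were left out. Names were updated through RefSeq (GRCm38.p6, names only), with 11366 probes matching a symbol, 2660 a synonym and 17990 without a name. Each channel's background limit equalled the median over 632 Empty spots plus 3 scaled median absolute deviations. Of these Empty spots 402 lay in blocks 41, 42, 45 and 46, so the limits rest mostly on those blocks. There 43.8% of Empty spots were above background in some channel, against 4.78% elsewhere. A gene's ratio is the mean over its measured probes, and SDs are over the 2 arrays. Where the degenerative cornea was below background on both arrays, a bound was set from channel values after loess and Aquantile scaling (limma 3.58.1, R 4.3.3). It rests on the lowest signal above background and is approximate. The number of arrays limits the precision. The members, lists and background rule were chosen with earlier results of these data known. Every listed gene is described, together with the measured genes of the rod list. For each other list the naming rule took the 4 measured genes with ratios of the largest size, and only some of these are named. Krt12, Aldh3a1, Tyr and Rpe65 were named outside this rule, the last 2 as defining markers. 1 gene of the rod list is counted but not reported here. Alternatives changed the normalization, background filter, probe rule, call size, array, print blocks and name match. Python 3.11.15, numpy 2.4.6 and pandas 2.3.3 were used.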

Additional observations from a re-analysis of the deposited data

Results flagged for a closer look

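Spots named Empty enter no ratio, but they set the background limit of each channel. They gave signal in the print blocks of the 2 genes that were not called. In block 41, which holds Guca1a, 58 of 100 Empty spots were above background in at least 1 channel, and in block 42, which holds Rgs9, 61 of 103 were. The median Empty reading in block 42 was 744 and 838 on array 1 (degenerative and normal cornea) and 305 and 159 on array 2.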

How the results depend on the processing

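Under 15 alternative settings each of the 9 genes kept the sign of its ratio wherever it was measured, in 131 of 131 comparisons, and 121 of these lay within the SD of the arrays. Pdc and Guca1b left that SD under every alternative normalization, at -1.64 to -1.60 and -1.31 to -1.28 against -1.25 and -1.10. Their ranks and closeness to the call limit are thus those of the deposited ratios. RECO_MOUSE left it with median-centred raw ratios (-1.77) and Aipl1 without the filter (-1.30). The stricter background filters, call sizes, print blocks, name match and series' value table left every measured ratio as it was. Dropping the filter or taking the brightest probe changed Aipl1 only. A single array always lies within the SD of the arrays. Most of these comparisons were therefore fixed in advance, and the counts do not measure robustness. The count of 7 genes called lower was 4 with calls at a log2 ratio of 1.5, 5 of 9 with median-centred raw ratios, 5 of 7 with both channels above background, and 7 under the other settings. At that size 1 gene of the rod list and 14 of the other lists were called in either direction, against 6 and 27. The median ratio of the 9 genes was -1.30 without the background filter, -1.25 with both channels above background, where 7 genes were measured, and -1.82 without the 4 print blocks, which leaves out Guca1a and Rgs9. Counting the Cngb1b spot, an alternative chosen after seeing the data, gave -1.43. On single arrays it was -1.41 (array 1) and -1.62 (array 2). The rod list's median of -1.18 was -0.93 after print-tip loess, -0.94 after loess over the whole array, -0.88 with median-centred raw ratios and with an offset of 50, -0.55 without the filter and -1.24 at the 95th percentile of the Empty spots. With median-centred raw ratios 3 genes of that list were called. The cause of these shifts was not tested. Over all genes 56 were called lower and 25 higher. Without the filter 130 were lower and 179 higher, so the higher calls became the more numerous. The counts were 34 and 16 at the 95th percentile of the Empty spots, 30 and 17 with both channels required, 119 and 60 at 1.5-fold, 18 and 13 at a log2 ratio of 1.5, 91 and 49 on array 1 alone, and 85 and 55 on array 2 alone.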
